A study of Mus musculus with 8 samples.

Results

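Homeobox genes of regional identity were followed in SN4741, a mouse line made from embryonic substantia nigra and widely used as a stand-in for midbrain dopaminergic neurons. The genes were chosen by name alone, as all symbols of the Hox, Irx, Pax, En, Otx, Lmx1, sine oculis (Six2 and its paralogs), Meis, Pbx, Dlx, Msx, Nkx, Lhx, Emx, Gbx and Pitx families, which gave 112 symbols (113 entries, because Hoxd4 is listed under 2 identifiers) of the 31053 genes in the count matrices. Single-cell transcriptomes came from 8 libraries, 4 of cells kept at the permissive temperature (37°C, 10% fetal bovine serum) and 4 of cells moved to the non-permissive temperature (39°C) for 48 hours in 0.5% serum. Temperature and serum changed together, so their parts cannot be told apart. The genotype label of all 8 libraries is WT, and both groups carry the immortalizing transgene of the line, a temperature-sensitive SV40 T antigen (tsA58) under the tyrosine hydroxylase promoter. The line is reported to be clonal and was karyotyped by the study as polyploid and unstable, and whether the replicates were separate cultures is not given in the sources used here, so that p-values measure the spread between libraries only.

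Homeobox genes encode transcription factors that bind DNA through a homeodomain, and much of what is known of body patterning rests on them. In the neural tube the Hox genes are expressed from the hindbrain to the tail, in nested domains whose order follows the order of the genes along their chromosomes, whereas the forebrain and midbrain lie ahead of all Hox domains and are marked by other families, among them Otx, Emx, Dlx, Nkx2 and En. Midbrain dopaminergic neurons arise from progenitors that express Otx2, Lmx1a, Lmx1b and En1, and later require Pitx3. Many of these genes have further roles outside the brain, for example in limb, craniofacial and lung development. The question addressed here was which level of the body axis the line expresses, and whether that differed between the temperatures.

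The 8 libraries held between 17166686 and 29633818 unique molecular identifiers (UMIs, 1 per captured mRNA molecule) in 18351 kept cells, of which 39°C library 1 had the fewest (985), and the median kept cell held between 6676 and 16665 UMIs. UMIs were summed per library and are given as CPM, the usual count scaled to a common library size, which counts the 3′ ends of molecules and needs no correction for gene length, although genes can differ in how well they are captured. The label names neural precursor cells. Of 8 neural progenitor markers, Nes and Sox2 were well measured, Sox3 and Hes5 had 0 UMIs, and Sox1, Prom1, Fabp7 and Msi1 had between 1 and 12 UMIs over all libraries. Of 5 dopaminergic markers, Th, Ddc and Slc6a3 had 7, 1 and 2 UMIs, and Foxa2 gave most of the summed level of 13.97 to 15.4 CPM at 37°C and 12.7 to 14.6 CPM at 39°C. Mesenchymal markers such as Col1a1 and Prrx1 summed to between 2327 and 2379 CPM at 37°C and between 1481 and 1522 CPM at 39°C. Lum had 1 UMI and Dcn 22. By edgeR, 6 of the 10 tested were lower at 39°C and 2 higher at an adjusted p under 0.05, against 30.5% and 31.5% of all genes. The summed level of neural progenitor markers lay between 483 and 605 CPM at 37°C and between 176 and 195 CPM at 39°C, a fall carried by Nes (467 to 108 CPM) while Sox2 (55.4 to 76.5 CPM) and Msi1, the other markers tested, were higher. That of neuronal markers lay between 164 and 197 and between 77.2 and 97.5 CPM, and that of neural crest markers between 82.0 and 87.1 and between 91.3 and 95.9 CPM, with Sox10 and Tfap2b at 0 UMIs, Foxd3 at 1 UMI, and Dcx and Elavl4 of the neuronal list also at 0. The part of these markers in the results on the homeobox genes was not tested.

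Most regional homeobox genes were absent or rare, and the level was carried by a few. Of the 112 symbols, 35 had no UMI in any library, which allows a level of up to 0.0142 CPM over all libraries (3 counts, for counting error only). The other 77 had at least 1 UMI, 52 entries reached a mean of 1 UMI per library and were tested, 31 reached a mean of 1 CPM and 15 reached 10 CPM. The median tested gene of the whole matrix lay at 11.9 CPM. All 3 Meis genes were above 10 CPM, whereas only 1 of 39 Hox symbols reached 1 CPM.

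**Figure D1:**
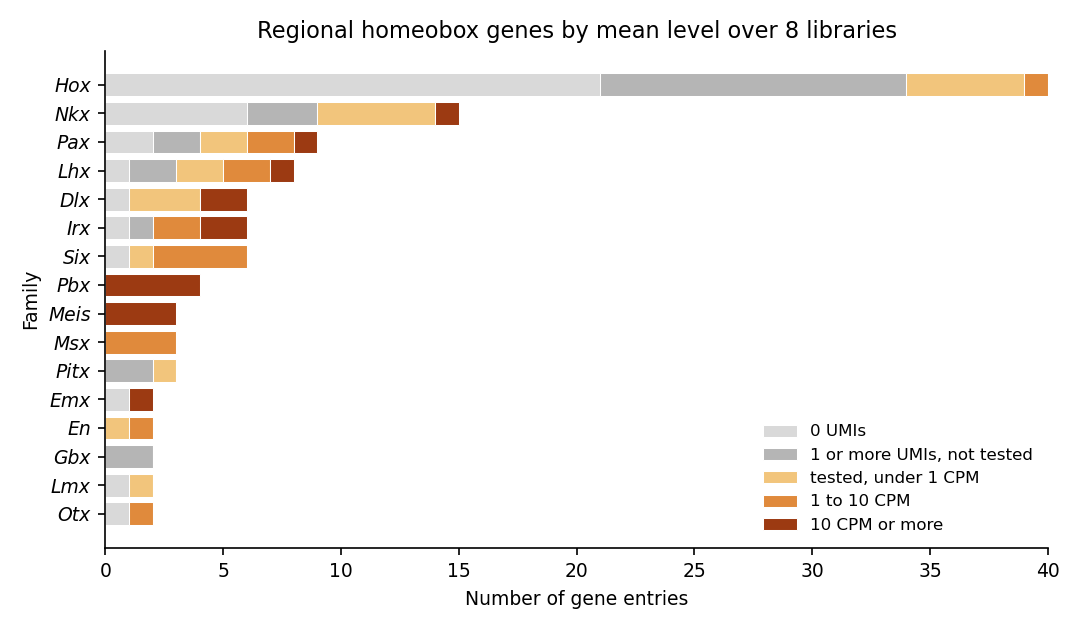
Number of gene entries in each family (bars, stacked), coloured by the mean level over the 8 libraries; tested entries had a mean of at least 1 UMI per library. All 3 Meis entries fall in the highest class, and 21 of 40 Hox entries have no UMI.

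The Hox genes, which mark the hindbrain, trunk and tail, were almost silent apart from 1 gene. Of the 39 symbols, 20 had no UMI in 18351 cells, among them all but Hoxd8 of the Hoxd cluster, which itself had 3 UMIs. Without Hoxc13, the other Hox genes summed to 1.13 ± 0.171 CPM in the 37°C libraries and 1.18 ± 0.0960 CPM in the 39°C libraries (SD, n = 4), a range of 0.982 to 1.37 CPM against 1.08 to 1.31 CPM. The most counted of them were Hoxb4 with 84 UMIs, Hoxb7 with 57 and Hoxc6 with 30 over all libraries, and of the first paralog groups, which begin in the hindbrain, Hoxb1, Hoxd1, Hoxa2 and Hoxb2 had none. Of the 5 other Hox genes tested, none had an adjusted p under 0.05 (edgeR quasi-likelihood test with Benjamini-Hochberg adjustment over 15810 genes), in either direction, and none had an unadjusted p under 0.05. By DESeq2 none had an adjusted p under 0.05 either. Hoxc6, at 0.188 ± 0.0397 and 0.0848 ± 0.0798 CPM (SD, n = 4, adjusted p = 0.136), was lower at 39°C when 39°C library 4 was left out (log2 fold change -1.69, adjusted p = 0.0353).

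**Figure D2:**
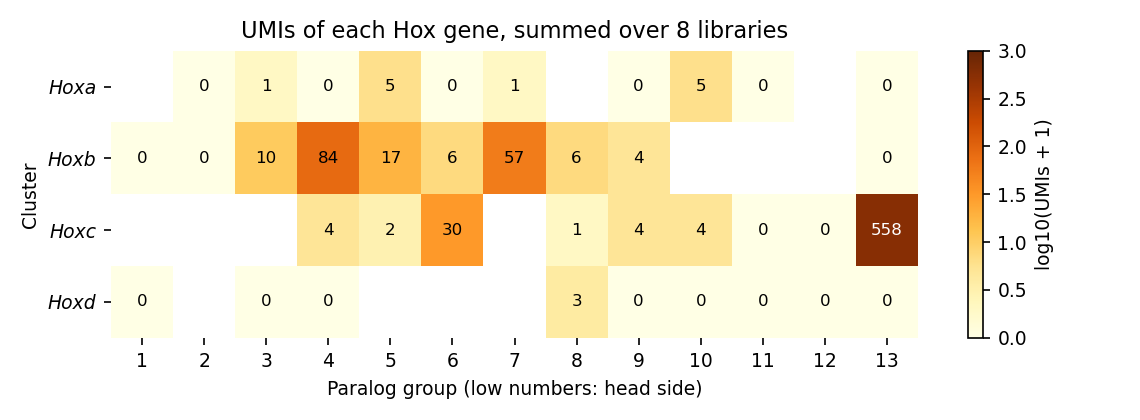
UMIs of each Hox gene summed over the 8 libraries, by cluster (rows) and paralog group (columns, low numbers nearest the head); colour is log10(UMIs + 1), empty cells are genes that the mouse does not have or that are not shown. Hoxc13 has 558 UMIs, and no other Hox gene has more than the 84 of Hoxb4.

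Hoxc13 (ENSMUSG00000001655, chromosome 15, 102921103 to 102928814, GRCm38), a gene of the last paralog group known for its role in hair and nail, stood at 0.891, 0.775, 0.701 and 0.807 CPM in the 37°C libraries 1 to 4 and at 4.09, 4.88, 4.74 and 5.17 CPM in the 39°C libraries. All 4 libraries at 39°C were above all 4 at 37°C, on 20 to 26 UMIs per library at 37°C and 72 to 134 at 39°C. The log2 fold change was 2.57 ± 0.140 (SE, adjusted p = 6.66e-12). Its UMIs came from 424 cells, with at most 5 UMIs in 1 cell. The share of Hox UMIs from paralog groups 10 to 13 was 44.1 ± 1.46% at 37°C and 80.5 ± 0.711% at 39°C (SD, n = 4), while groups 1 to 4 gave 20.4 ± 5.15% and 9.95 ± 2.97% and groups 5 to 9 gave 35.4 ± 5.70% and 9.54 ± 2.93%. The shares add up to the whole, so those of the other groups are lower wherever that of Hoxc13 is higher, and in CPM groups 1 to 4 stood at 0.393 ± 0.112 and 0.576 ± 0.113 and groups 5 to 9 at 0.685 ± 0.154 and 0.575 ± 0.217. These shares rest on 47 to 66 Hox UMIs per library at 37°C and 91 to 168 at 39°C. Of 7 noncoding RNAs of the Hox clusters, 3 had a UMI, and the only one tested, Hotairm1, had 16 UMIs in all and a log2 fold change of 0.18 ± 0.649 (SE, adjusted p = 0.839).

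Among genes of the brain ahead of the Hox domains, forebrain genes were measured at higher levels than those of the midbrain. The 13 forebrain genes summed to 121 ± 1.59 CPM in the 37°C libraries and 144 ± 3.51 CPM in the 39°C libraries (SD, n = 4). Nkx2-1, Dlx1, Dlx2, Emx2 and Lhx2 were each above 10 CPM as a mean over the 8 libraries, although Lhx2 was below 10 CPM at 39°C. Emx1, Dlx6, Lhx8 and Six6 had 0 UMIs. The 10 midbrain and isthmus genes summed to 11.5 ± 0.724 and 10.0 ± 1.05 CPM. Of that second sum, En1 alone gave 9.72 ± 0.625 CPM under the permissive condition and 8.72 ± 0.819 CPM under the other.

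The midbrain genes other than En1 and Pax8 were at or near the counting limit. Otx2, which sets up forebrain and midbrain, and Lmx1a, which specifies dopaminergic progenitors, had 0 UMIs in all 8 libraries. Lmx1b had 8 UMIs, En2 had 9, Pax2 had 16 and Pax5 had 8. Pitx3, required by substantia nigra neurons, and Gbx2, which marks the hindbrain side of the isthmus, had 4 UMIs each. Lmx1b, En2, Pax2 and Pax5 were tested and had adjusted p from 0.492 to 0.904, and on so few UMIs no difference was detectable at this depth. En1 (chromosome 1, 120602418 to 120607992) read 9.67, 10.6, 9.32 and 9.27 CPM in the 37°C libraries and 9.70, 8.33, 7.82 and 9.02 CPM in the 39°C libraries, so the temperatures overlapped. Its log2 fold change was -0.17 ± 0.0792 (SE, adjusted p = 0.0763), and the adjusted p was 0.0224 without 39°C library 1. Otx1, the paralog of Otx2, read 7.40, 8.99, 8.41 and 8.57 CPM at 37°C and 4.37, 5.60, 5.31 and 5.20 CPM at 39°C, with no overlap, and fell with a log2 fold change of -0.69 ± 0.0908 (SE, adjusted p = 1.84e-06). Pax8 fell from 1.55 ± 0.347 to 1.06 ± 0.137 CPM (SD, n = 4, log2 fold change -0.58 ± 0.195 SE, adjusted p = 0.0150), and its adjusted p was 0.0584 without 37°C library 1, so that 1 library decided this call.

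Across the whole set, 20 of the 52 tested entries (38.5%) were higher at 39°C and 8 (15.4%) lower at an adjusted p under 0.05, while 24 did not pass. Over all 15810 genes tested, 31.5% were higher and 30.5% lower by the same rule. By DESeq2, 16 entries were higher and 8 lower at an adjusted p under 0.05. The shares over all genes are from edgeR only. The median log2 fold change of the 52 was 0.14, and that of all genes tested was 0.02. Past the study's limits (adjusted p under 0.01 and an absolute log2 fold change over 1.5) were 3 entries higher, Irx3, Hoxc13 and Dlx3, against 2.21% of all genes, and 0 lower, against 3.62% of all genes. The study set those limits for bulk RNA-seq with DESeq2, whereas here they were applied to edgeR fits of summed UMIs. In edgeR 10 entries had an unadjusted p under 0.05 in the lower direction, and DESeq2 likewise called 0 lower. The temperatures did not overlap in 18 of the 52 (34.6%) in the higher direction, against 28.7% of all genes, and in 7 (13.5%) in the lower direction, against 28.0%. Summed over all members, the level lay between 778 and 838 CPM at 37°C and between 1266 and 1301 CPM at 39°C, and Irx3 and Irx5 contributed to it as given next. In sums over cells, more cells with a gene and more RNA of it per cell cannot be told apart.

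**Figure D3:**
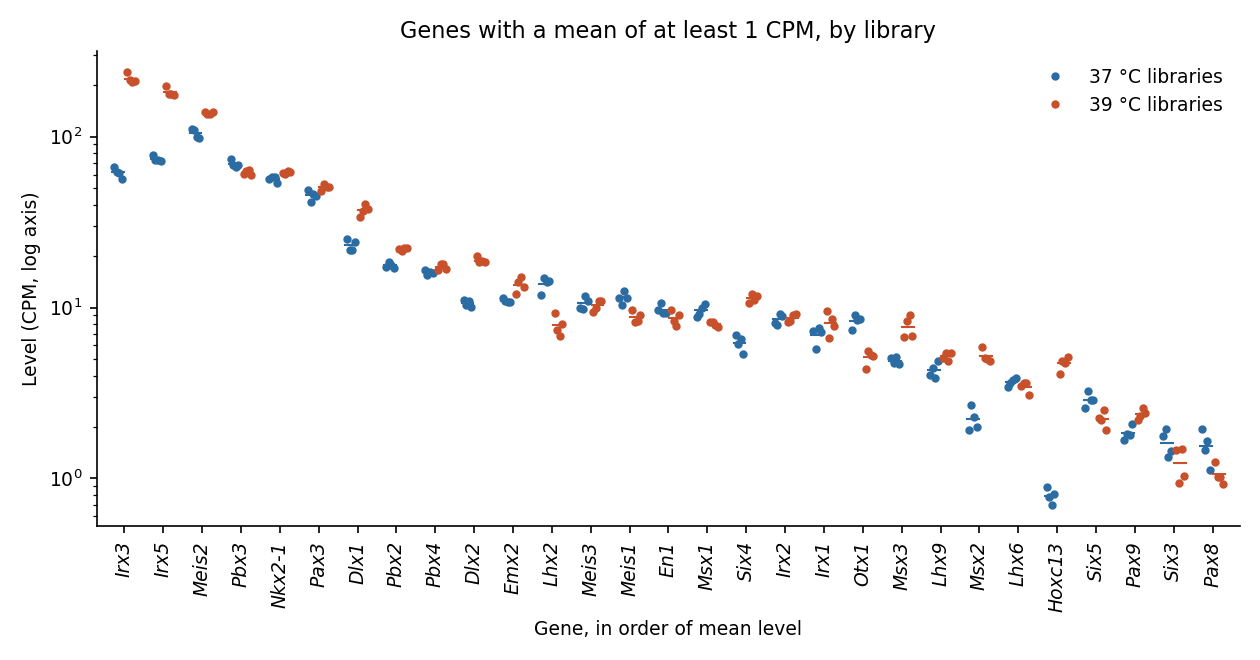
Level of 29 of the genes with a mean of at least 1 CPM, in CPM on a log axis, 1 point per library and a line at the mean, with 37°C in blue and 39°C in orange. Irx3, Irx5 and Hoxc13 show all 39°C libraries above all 37°C libraries, and Lhx2 and Otx1 the reverse order.

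The Iroquois genes, which help divide the neural plate into territories and also act in heart and limb, gave the largest difference in CPM of any family. Irx3 (ENSMUSG00000031734, chromosome 8, 91798525 to 91802067) was at 66.8, 62.4, 61.6 and 56.8 CPM in the 37°C libraries and at 238, 215, 208 and 211 CPM in the 39°C libraries. The highest library at 37°C was thus far below the lowest at 39°C, and the log2 fold change was 1.81 ± 0.0569 (SE, adjusted p = 2.19e-15). Irx5, its neighbour in the same gene cluster, was at 77.7, 72.7, 72.7 and 72.2 CPM and at 198, 178, 178 and 175 CPM, with a log2 fold change of 1.30 ± 0.0502 (SE, adjusted p = 4.36e-14). The third gene of that cluster, Irx6, had 1 UMI in all. The genes of the other Iroquois cluster gave no such difference: Irx1 was at 6.95 ± 0.826 and 8.14 ± 1.21 CPM (SD, n = 4, adjusted p = 0.0925) and Irx2 at 8.52 ± 0.610 and 8.71 ± 0.453 CPM (adjusted p = 0.701), while Irx4 had 0 UMIs. The adjusted p of Irx1 was 0.0271 with the replicate number as a block and 0.0184 without 39°C library 2.

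Several other members that lie side by side on a chromosome were measured together. Dlx1 and Dlx2, which drive the making of inhibitory interneurons in the ventral forebrain and also pattern the jaw, are 9.43 kb apart on chromosome 2. Dlx1 was at 25.2, 21.9, 21.7 and 24.1 CPM at 37°C and at 34.0, 36.8, 40.2 and 37.5 CPM at 39°C. Dlx2 was at 11.04, 10.4, 10.9 and 10.1 CPM and at 19.9, 18.4, 18.6 and 18.4 CPM. Neither gene overlapped between the temperatures, and their log2 fold changes were 0.68 ± 0.0606 and 0.82 ± 0.0593 (SE, adjusted p = 8.05e-09 and 4.09e-10). Their partners Dlx5 and Dlx6 had 14 and 0 UMIs. Dlx3 and Dlx4, neighbours on chromosome 11 with roles in skin, placenta and bone, rose as well but from very low levels. Dlx3 read 0.103, 0.0388, 0.315 and 0.0702 CPM at 37°C and 0.454, 0.454, 0.602 and 0.501 CPM at 39°C, with no overlap, 37°C library 3 standing above the other 3 of its group, and a log2 fold change of 1.89 ± 0.437 (SE, adjusted p = 0.000910, on 65 UMIs in all). That value was 2.73 without 37°C library 3 and 1.62 without 37°C library 2. Dlx4 rose from 0.685 ± 0.0815 to 1.24 ± 0.169 CPM (SD, n = 4, adjusted p = 0.000893).

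Nkx2-1 (chromosome 12, 56531958 to 56536908), which specifies the ventral forebrain, lung and thyroid, was the highest forebrain gene and differed little between temperatures. It read 56.7, 58.2, 58.2 and 53.5 CPM at 37°C and 61.4, 60.6, 63.2 and 61.8 CPM at 39°C. The groups did not overlap, but the difference was small, a log2 fold change of 0.12 ± 0.0444 (SE, adjusted p = 0.0204), and adjusted p was 0.0715 without 37°C library 1, 0.0950 without 37°C library 4, 0.0657 without 39°C library 3, 0.0514 without 39°C library 4 and 0.0605 by DESeq2. Its chromosomal neighbours Nkx2-9 and Pax9 were at 0.641 and 2.11 CPM on average. Among 4 ventral neural tube genes, which lie along the floor of the spinal cord and hindbrain, the sum was 0.510 ± 0.211 and 1.05 ± 0.291 CPM, far below the level of Nkx2-1. Nkx2-9 rose (log2 fold change 1.17 ± 0.317 SE, adjusted p = 0.00340). Nkx6-1 passed at adjusted p = 0.0494 on 12 UMIs, and did not pass when any 1 library other than 39°C library 2 was left out, with adjusted p from 0.0546 to 0.126 in those fits. Nor did it pass by DESeq2 (adjusted p = 0.1015) or in edgeR with another scaling, RLE (adjusted p = 0.0510).

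The other forebrain genes differed in direction. Lhx2, needed for the cerebral cortex, eye and limb, read 11.9, 14.9, 14.1 and 14.4 CPM at 37°C and 9.25, 7.38, 6.80 and 8.06 CPM at 39°C, and the groups did not overlap. It fell, with a log2 fold change of -0.83 ± 0.0901 (SE, adjusted p = 1.38e-07). Emx2, a gene of the cortex and of the urogenital tract, read 11.4, 10.9, 10.8 and 10.7 CPM and then 11.97, 14.04, 15.04 and 13.1 CPM, again without overlap, and rose with a log2 fold change of 0.32 ± 0.0707 (SE, adjusted p = 0.000644). Lhx6, which follows Nkx2-1 in interneurons, stood at 3.68 ± 0.197 and 3.44 ± 0.245 CPM (SD, n = 4, adjusted p = 0.439), and Six3, which sets the front end of the forebrain, at 1.62 ± 0.285 and 1.24 ± 0.284 CPM (adjusted p = 0.0760, and 0.0391 to 0.0432 without 37°C library 3, 39°C library 1 or 39°C library 3). Of the LIM homeobox genes not on the forebrain list, Lhx9 rose from 4.31 ± 0.440 to 5.19 ± 0.262 CPM (adjusted p = 0.0219), and Lhx1 and Lhx5, which mark early brain and spinal cord, had 16 and 31 UMIs.

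Promoter sequences are shown for these genes because Irx3 had the largest difference among the abundant members, Dlx1 and Dlx2 rose as neighbours, and Nkx2-1 was abundant with little difference. Each run is 300 bases of RefSeq (GRCm38.p6) from 250 before to 50 after the annotated start, 5′ to 3′ on the gene's strand, with CG dinucleotides in capitals. Irx3 lies at chr8:91801605-91801904 on the minus strand, Dlx1 at chr2:71529195-71529494 on the plus strand, Dlx2 at chr2:71546705-71547004 on the minus strand and Nkx2-1 at chr12:56536859-56537158 on the minus strand.
Irx3: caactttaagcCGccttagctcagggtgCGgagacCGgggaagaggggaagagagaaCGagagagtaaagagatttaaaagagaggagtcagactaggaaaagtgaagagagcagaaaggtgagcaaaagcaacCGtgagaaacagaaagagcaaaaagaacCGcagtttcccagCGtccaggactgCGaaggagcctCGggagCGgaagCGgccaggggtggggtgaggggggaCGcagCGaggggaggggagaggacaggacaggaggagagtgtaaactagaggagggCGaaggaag
Dlx1: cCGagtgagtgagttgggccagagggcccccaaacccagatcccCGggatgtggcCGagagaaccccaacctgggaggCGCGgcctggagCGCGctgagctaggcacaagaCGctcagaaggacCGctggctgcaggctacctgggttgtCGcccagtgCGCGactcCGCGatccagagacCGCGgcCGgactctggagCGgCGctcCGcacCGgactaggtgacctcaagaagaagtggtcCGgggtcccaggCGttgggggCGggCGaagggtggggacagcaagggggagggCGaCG
Dlx2: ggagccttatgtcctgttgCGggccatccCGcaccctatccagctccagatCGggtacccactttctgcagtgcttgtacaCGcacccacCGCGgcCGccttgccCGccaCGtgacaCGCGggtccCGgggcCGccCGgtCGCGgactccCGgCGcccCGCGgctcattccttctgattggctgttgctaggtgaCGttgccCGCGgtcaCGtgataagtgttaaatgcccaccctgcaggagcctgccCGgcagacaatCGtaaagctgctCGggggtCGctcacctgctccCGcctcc
Nkx2-1: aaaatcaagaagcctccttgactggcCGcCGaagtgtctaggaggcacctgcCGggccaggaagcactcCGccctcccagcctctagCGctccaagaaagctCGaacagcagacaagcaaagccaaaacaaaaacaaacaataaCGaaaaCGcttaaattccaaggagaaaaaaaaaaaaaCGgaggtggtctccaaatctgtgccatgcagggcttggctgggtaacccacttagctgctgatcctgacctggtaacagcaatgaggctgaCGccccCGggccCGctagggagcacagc

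These windows hold 14, 27, 29 and 12 CG dinucleotides in the order printed. The median was 18 in the 87 promoters found for 74 of the members and 7 in all 32851 promoters of the reference, and the members with no UMI had a median of 17, as did the members of at least 1 CPM. Motifs were searched on both strands and none is contained in another. TAATTA, the core of many homeodomain sites, was in 8.05% of the members' promoters and 5.29% of all promoters, and TGATTG, part of the Pbx site, in 16.1% and 14.04%. TATAAA was in 10.3% and 13.6%, and TTTGGCGC, a form of the E2F site, in 0 of 87 and 0.514%. Of the 4 windows printed, that of Dlx2 holds TGATTG and the others none of the 4 motifs. These are matches of sequence only, and which protein binds there was not tested.

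The Pbx and Meis proteins are partners that Hox and other homeodomain proteins bind with. All 7 of their genes had a mean of at least 10 CPM of mRNA, while most Hox mRNAs were nearly absent. The median tested gene lay at 11.9 CPM, and protein was not measured. Meis2 read 112, 110, 99.7 and 98.2 CPM and then 138, 135, 135 and 139 CPM (log2 fold change 0.38 ± 0.0495 SE, adjusted p = 1.36e-06). Pbx2 rose as well (log2 fold change 0.32 ± 0.0513 SE, adjusted p = 2.09e-05). Pbx3 and Meis1 fell, with log2 fold changes of -0.17 and -0.38, and Pbx4 and Meis3 did not pass (adjusted p = 0.0788 and 0.736). Exons of Pbx2 overlap those of Gpsm3 on the same strand, so its count is uncertain. Of 4 further genes of the same class, Tgif1 and Pknox1 rose and Tgif2 and Pknox2 fell. Tgif1 had the largest log2 fold change, 1.31 ± 0.0628 (SE, adjusted p = 9.92e-13).

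Genes of the dorsal neural tube were measured too, although most of them also act in the neural crest and in mesenchyme. Pax3, required in dorsal neural tube, crest and muscle progenitors, read 49.0, 41.3, 45.9 and 45.1 CPM at 37°C and 47.8, 52.5, 50.8 and 50.7 CPM at 39°C, with overlap and a log2 fold change of 0.16 ± 0.0529 (SE, adjusted p = 0.0154, but 0.0703 without 37°C library 2 and 0.0570 without 39°C library 2). Its paralog Pax7 had 2 UMIs. The Msx genes, targets of BMP signalling, moved in different directions. Msx2 rose from 2.22 ± 0.341 to 5.21 ± 0.472 CPM (SD, n = 4, adjusted p = 3.02e-08), Msx3 rose from 4.90 ± 0.214 to 7.72 ± 1.14 CPM (adjusted p = 9.14e-06), and Msx1 fell from 9.62 ± 0.778 to 8.01 ± 0.265 CPM (adjusted p = 0.00485).

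Of 14 genes whose best-known roles lie outside the nervous system, 4 rose, 2 fell and 4 did not pass among the 10 tested. Over all genes tested, 31.5% were higher and 30.5% lower by the same rule. Six4, which acts in muscle and sensory placodes, read 6.92, 6.08, 6.52 and 5.37 CPM at 37°C and 10.7, 11.96, 11.1 and 11.6 CPM at 39°C, a log2 fold change of 0.87 ± 0.0818 (SE, adjusted p = 1.89e-08). Nkx2-5, the cardiac factor, fell from 1.30 ± 0.191 to 0.555 ± 0.214 CPM (adjusted p = 0.000277). The other genes of this list that passed were Pax9, Dlx3 and Dlx4, which rose, and Six5, which fell. Adjusted p for Pax9 was 0.0170, and 0.0615 without 37°C library 1 and 0.0590 without 39°C library 3, and for Six5 it was 0.0174, and 0.0584 without 37°C library 2 and 0.0597 without 39°C library 4. Pax9 did not pass by DESeq2 either (adjusted p = 0.0821).

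The temperatures differed in cell cycle, with 24.1 ± 3.41% of cells assigned to G1 at 37°C and 84.3 ± 1.22% at 39°C (SD, n = 4), so the comparison was repeated in G1 cells alone. There 42 members were tested, of which 10 (23.8%) were higher and 7 (16.7%) lower at an adjusted p under 0.05, against 24.8% and 22.4% of the 14712 genes tested. By DESeq2, 9 were higher and 6 lower at that adjusted p. Past the study's limits was Hoxc13, higher, against 1.04% of all genes, and 0 lower by edgeR or DESeq2, against 1.5%; in edgeR 8 had an unadjusted p under 0.05 in the lower direction. The median log2 fold change was 0.05, and 0.04 over all genes tested. The 10 higher in G1 cells were all among the 20 higher in all cells, and 6 of the 7 lower in G1 cells were among the 8 lower in all cells. The seventh was En1, whose log2 fold change in G1 cells was -0.32 ± 0.115 (SE, adjusted p = 0.0265, but 0.0751 without 37°C library 1, 0.135 without 37°C library 2, 0.0616 without 39°C library 2 and 0.0649 without 39°C library 3).

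Irx3, Irx5, Dlx1, Dlx2, Six4, Msx2 and Hoxc13 rose in G1 cells too. In G1 cells, Irx3 was at 103, 96.3, 97.0 and 95.4 CPM at 37°C and at 253, 228, 219 and 227 CPM at 39°C (log2 fold change 1.24 ± 0.0566 SE, adjusted p = 6.69e-14). Hoxc13 had a log2 fold change of 1.72 ± 0.212 (SE, adjusted p = 4.83e-07) on 1.58 and 5.20 CPM. Dlx1 had nearly the same value as in all cells, 0.63 ± 0.0725 (SE, adjusted p = 1.84e-07). By contrast Emx2, Msx3 and Meis2, which rose in all cells, had log2 fold changes of -0.13, -0.14 and 0.07 in G1 cells (adjusted p = 0.303, 0.419 and 0.350). Likewise Dlx4, Pax3 and Pax9 had -0.01, -0.05 and -0.08 in G1 cells (adjusted p = 0.990, 0.542 and 0.786), and Dlx3, Lhx9, Nkx2-1 and Nkx6-1 kept a positive value without passing (adjusted p = 0.0713, 0.498, 0.155 and 0.112), as did Six5 a negative one (adjusted p = 0.211). Lhx2, which fell in all cells, had -0.24 ± 0.158 in G1 cells (SE, adjusted p = 0.229), and Otx1 had -0.36 ± 0.147 (SE, adjusted p = 0.0455, 0.0572 to 0.155 when 1 of 37°C libraries 2, 3 and 4 or 39°C libraries 1, 3 and 4 was left out). The difference between all cells and G1 cells was not itself tested. The G1 sums at 37°C held 5352538 to 7430745 UMIs per library, against 26238596 to 29633818 for all kept cells. Dlx3 had 5 UMIs in G1 cells over the 37°C libraries. At such counts, not passing does not show that a difference was absent.

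**Figure D4:**
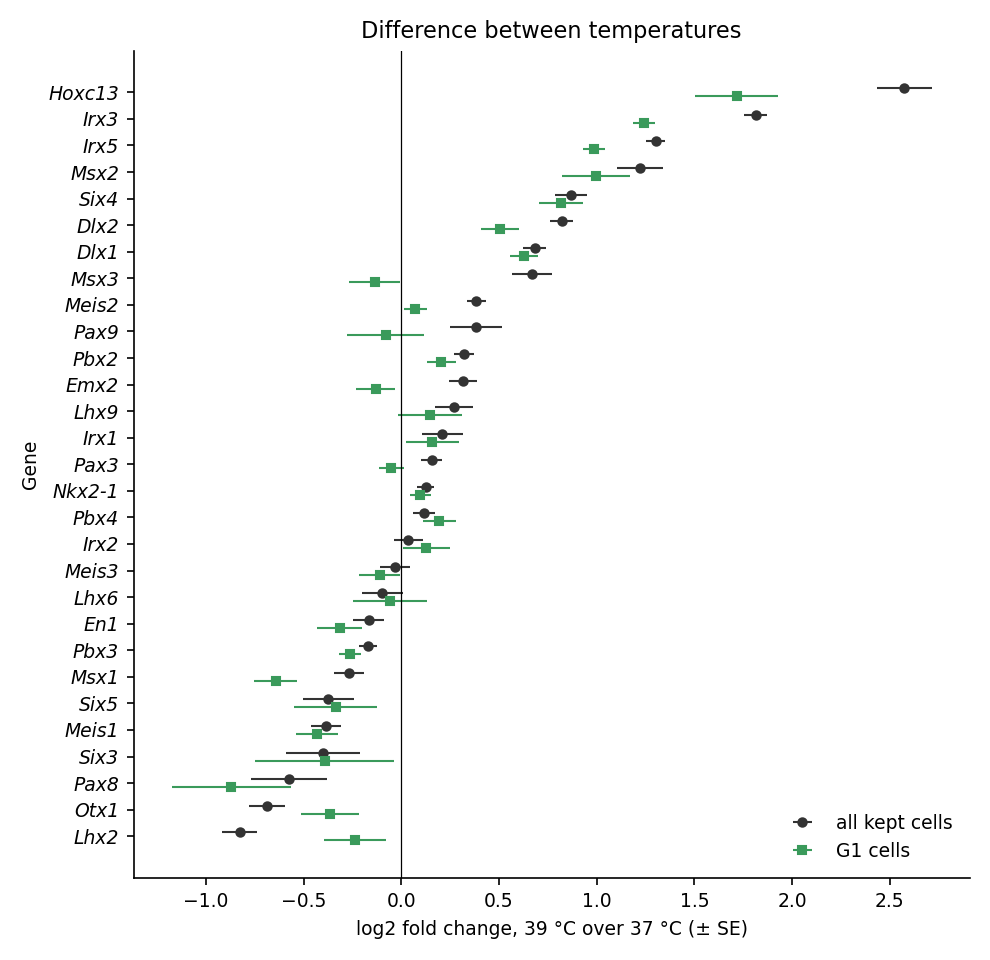
Log2 fold change (39°C over 37°C, ± SE) of 29 of the genes with a mean of at least 1 CPM, in all kept cells (black circles) and in G1 cells (green squares), ordered by the value in all cells. Hoxc13 is at 2.57 and 1.72, Irx3 at 1.81 and 1.24, and Lhx2 at -0.83 and -0.24.

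Levels were then set against the assigned phase within each library, a comparison chosen after the values had been seen. Phases were assigned from the cells' own expression of S and G2M gene lists that hold none of these genes. CPM by phase was scaled to the total UMIs of that phase in each library, without the TMM scaling used for the other CPM values. Values in G1 cells therefore differ slightly from those given above. Lhx2 was highest in S cells in 8 of 8 libraries. At 37°C it was at 23.2 CPM in S cells (19.5 to 25.3 over libraries), 7.06 CPM in G1 cells and 7.14 CPM in G2M cells, and at 39°C at 21.2 CPM in S cells (17.8 to 23.6), 6.11 CPM in G1 cells and 11.3 CPM in G2M cells. Its ranges in S cells overlapped between the temperatures, and the share of S cells was 40.5 ± 2.52% at 37°C and 11.3 ± 0.721% at 39°C (SD, n = 4). Of the 52 entries tested, Lhx2 and Nkx2-3 (27 UMIs in all) were highest in S cells in every library, against 3.05% of all genes.

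The opposite order, S cells lowest in all 8 libraries, was seen in Hoxc13 and Six4, against 2.37% of all genes. Hoxc13 stood at 0.333 CPM in S cells at 37°C and 1.04 CPM at 39°C, on 1 to 6 UMIs per library, against 1.59 and 5.16 CPM in G1 cells. When all deposited cells were used, Six4 kept this order and Hoxc13 did not, and with a mitochondrial limit of 10% neither did. G1 cells were highest in all libraries in 6 members, among them Emx2, Irx3, Irx5, Pax3 and Pbx3, against 5.95% of all genes. Irx3 at 37°C was at 98.4 CPM in G1 cells, 50.4 CPM in S cells and 52.4 CPM in G2M cells, and at 39°C at 231, 166 and 152 CPM, so that in each phase the 39°C level was above the 37°C level. Emx2 stood at 15.9, 9.77 and 9.14 CPM at 37°C and at 14.3, 10.7 and 8.05 CPM at 39°C in G1, S and G2M cells, nearly the same within each phase.

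**Figure D5:**
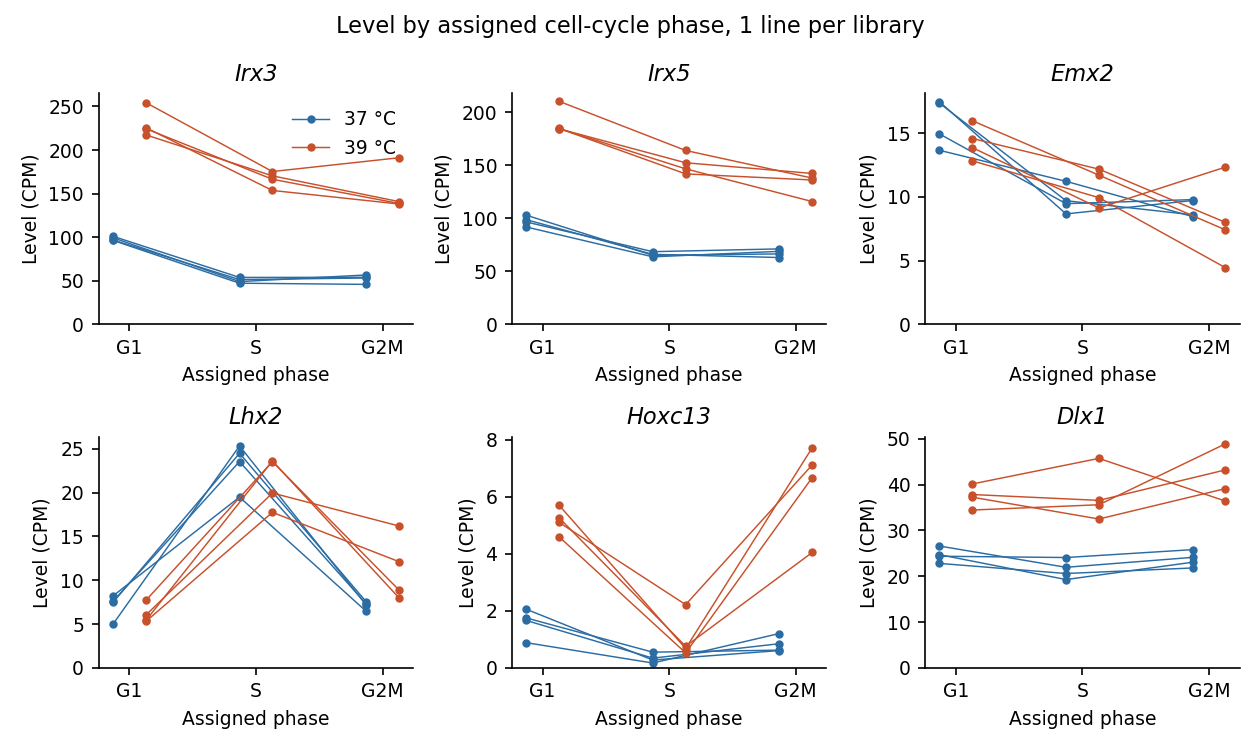
Level of 6 genes in CPM (linear axis from 0) in cells assigned to G1, S and G2M, 1 line per library, with 37°C in blue and 39°C in orange. Lhx2 peaks in S cells in all 8 libraries, Hoxc13 dips there, and Irx3, Irx5 and Dlx1 keep their temperatures apart in G1 cells.

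Shares of cells with a UMI were compared after each cell was thinned to 5000 UMIs, which left out 668 of 8550 cells at 37°C and 1668 of 9801 at 39°C. Irx3 was detected in 24.7 ± 1.82% of cells at 37°C and 58.8 ± 2.09% at 39°C (SD, n = 4), against 45.1 ± 5.30% and 75.8 ± 8.67% without thinning. Irx5 was detected in 29.3 ± 1.85% and 54.0 ± 1.71% (54.0 ± 7.21% and 72.2 ± 10.1% without thinning). Dlx1 went from 10.8 ± 0.909% to 17.1 ± 1.04% of cells (24.7 ± 2.85% and 29.7 ± 7.02%). Nkx2-1 was detected in 24.8 ± 1.16% and 26.4 ± 1.38% of thinned cells (47.1 ± 6.77% and 44.5 ± 11.4% without thinning). Hoxc13 was detected in 0.424 ± 0.0812% and 2.23 ± 0.198% of thinned cells (0.910 ± 0.163% and 3.82 ± 0.855%). The line holds no cell type known to lack these genes, so the share that free RNA gives could not be set.

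Among 6 regional genes, cells with a UMI of 1 held UMIs of another as often as cells without it, or somewhat more often, in most pairs. For Nkx2-1, Irx3, Pax3, Dlx1, Meis2 and En1, all 30 ordered pairs were compared, each as the share of thinned cells with 1 gene among cells with and without a UMI of another. The share among cells with the second gene divided by that among cells without it lay between 0.851 and 1.27 at 37°C and between 0.971 and 1.33 at 39°C, and the share was higher with the second gene in all 4 libraries in 14 pairs at 37°C and 10 at 39°C, and lower in all 4 in none. Nkx2-1 was detected in 26.3% of cells with an En1 UMI and 24.7% of cells without at 37°C, and in 27.6% and 26.3% at 39°C (371 and 367 cells with En1), higher with En1 in 2 of 4 libraries at 37°C and 3 of 4 at 39°C. Dlx1 was detected in 12.9% of cells with Irx3 and 10.1% without at 37°C, and in 19.1% and 14.4% at 39°C, higher with Irx3 in 4 of 4 libraries at each temperature. The pairs share cells and libraries, and free RNA would give a like share in all cells, so these values are descriptions.

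Upstream regulators of axial level, none of them in the set, were measured from a list of 19 genes. Of the 14 tested, 8 rose, 3 fell and 3 did not pass, where 31.5% of all genes tested were higher and 30.5% lower. The Cdx genes, which switch on posterior Hox genes, had 1 (Cdx1), 16 (Cdx2) and 0 (Cdx4) UMIs. Retinoic acid receptors were present, with Rarg at 64.4 ± 3.63 and 82.9 ± 3.25 CPM (SD, n = 4), and of the enzymes that make retinoic acid Aldh1a2 had 0 UMIs and Aldh1a3 stood at 35.0 ± 2.87 and 40.7 ± 1.27 CPM. Aldh1a3 was higher at 39°C in all cells (log2 fold change 0.22, adjusted p = 0.00227) but lower in G1 cells (-0.28 ± 0.0733 SE, adjusted p = 0.00281). In G1 cells 4 of the 13 genes of the list tested were higher and 3 lower, against 24.8% and 22.4% of all genes. Cyp26b1, which breaks retinoic acid down, rose from 19.0 ± 2.51 to 60.4 ± 4.35 CPM (log2 fold change 1.67 ± 0.0734 SE, adjusted p = 2.86e-13). Among 9 further regional factors of other families, Fgf8 had 1 UMI and Wnt1 had 24, both made at the isthmus in the embryo. Of the 6 tested, 2 rose and 2 fell, against 31.5% and 30.5% of all genes. Egr2, known from hindbrain segments and from other tissues, rose from 3.63 ± 0.575 to 5.57 ± 0.342 CPM, and Shh, the ventralizing signal, fell from 0.469 ± 0.128 to 0.230 ± 0.0436 CPM.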

How the data were processed

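UMI counts per gene and cell were deposited by the authors as 10x matrices for 8 libraries of the Chromium Single Cell 3′ V3 kit, made with Cell Ranger 3.0.1 on mm10 per the submitters' processing notes. Of 19125 deposited cells, 18351 were kept by the limits the authors state (at most 15% mitochondrial UMIs, 200 to 6000 genes), with doublets treated only by the upper limit on genes. At most 5 barcodes were shared by any pair of libraries. Cells were assigned a phase in Seurat 5.3.0 (CellCycleScoring) and counts were summed per library. Genes averaging 1 or more counts over the libraries were tested, genome-wide, by the quasi-likelihood test of edgeR 4.0.16 (TMM scaling, Benjamini-Hochberg adjustment over all genes tested), 4 libraries against 4. Cells are not replicates. DESeq2 1.42.0 (as an alternative), other scalings and filters, other cell limits, the replicate number as a block and each library left out were tried. Gene positions came from GENCODE M21, which held 112 of the 113 identifiers, and promoters from RefSeq.

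The members, the lists and the comparisons were chosen with earlier results of these data known. Genes named were the 25 members with the highest mean CPM, all members called in all cells or in G1 cells, the midbrain and isthmus list, and Irx3, which made 36. Beyond these, members with few UMIs and genes of the other lists were named after their values were seen, and some genes are not reported here. Counts cover sampling of molecules only: intervals and limits leave out other error.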

Additional observations from a re-analysis of the deposited data

Results flagged for a closer look

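The level or share in 1 library lay far from the other 3 of its temperature, by the gap to the nearest library relative to the range, in 4 of 74 groups of 4 libraries tested, where chance gives about 1 in 20. Irx5 stood at 77.7 CPM in 37°C library 1, against 72.2 to 72.7 CPM in the others, and at 198 CPM in 39°C library 1, against 175 to 178 CPM. Dlx2 stood at 19.9 CPM in 39°C library 1, against 18.4 to 18.6 CPM. The share of Hox UMIs from paralog groups 1 to 4 was 12.7% in 37°C library 4, against 22.7 to 23.4%, on 55 Hox UMIs in that library. The calls of Irx5 and Dlx2 held without those libraries.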

How the results depend on the processing

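Of the 28 members with an adjusted p under 0.05 in all cells, 21 kept it under each alternative, 7 lost it under at least 1 (Lhx9, Nkx2-1, Nkx6-1, Pax3, Pax8, Pax9 and Six5) and none reversed. In G1 cells 12 of 17 kept it, and Pbx2, En1, Otx1, Pax8 and Nkx2-9 lost it. Calls gained under at least 1 alternative numbered 8 in all cells (En1, Hoxc6, Irx1, Nkx2-3, Nkx6-2, Pbx4, Six2 and Six3; Pbx4 at adjusted p = 0.0294 with library totals only, Six2 at 0.0419 without 39°C library 1, Nkx2-3 at 0.0445 with the 10% mitochondrial limit) and 3 in G1 cells (Dlx3, Nkx6-1 and Pbx4). Lhx9 (adjusted p = 0.0219) gave 0.0811 and 0.0851 without 37°C libraries 1 and 3 and 0.0606 and 0.0654 without 39°C libraries 2 and 4. By DESeq2, adjusted p was 0.08495 for Lhx9 in all cells, and in G1 cells 0.1195 for Pbx2 and 0.0560 for Otx1. In G1 cells Pbx2 (0.0283) gave 0.157, 0.0546 and 0.0746 without 37°C libraries 1 and 4 and 39°C library 3, Pax8 (0.0218) gave 0.220 and 0.0689 without 37°C libraries 1 and 3, and Nkx2-9 (0.0236) gave 0.0636, 0.0886, 0.0646 and 0.0597 without 37°C libraries 2, 3 and 4 and 39°C library 4. Counts of members called lower ranged from 0 to 1 when 1 library was left out, in all cells (Nkx6-2 without 39°C library 4, where its other 39°C libraries were at 0 UMIs) and in G1 cells (Nkx2-5 without 37°C library 1 or 39°C library 3). With all deposited cells the share of Hox UMIs from groups 10 to 13 at 39°C was 79.7%. Members highest in S cells numbered 1 with all deposited cells or the 10% mitochondrial limit (Lhx2), and members lowest in S cells 1 and 0; these comparisons were chosen after seeing the data.

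With the replicate number as a block, 21 members were higher and 8 lower at an adjusted p under 0.05 in all cells, and 1 call (Irx1) was gained and none lost. Deviations of same-numbered libraries from their temperature means had correlations over 15810 genes of -0.0789, -0.0662, -0.0483 and 0.153. Of the 4 numbers, 1 correlated best with its own. These weak values, over genes many of which have few counts, cannot decide whether same-numbered libraries were prepared together. Counting limits the genes under 1 CPM, where log2 fold changes in all cells carry SE from 0.198 (Dlx4) to 1.10 (Pax5).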
